A study of Mus musculus with 6 samples.

Results

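Glycosylphosphatidylinositol (GPI) anchors are glycolipids that hold many cell surface proteins on the outer leaflet of the membrane. Expression of the 30 genes listed for building, attaching and remodelling this anchor was examined in mouse embryonic fibroblasts (MEFs) with and without tamoxifen-activated deletion of Kansl1, a scaffold subunit of the NSL histone acetyltransferase complex. The genes were taken by their symbols from the deposited expression table of 26898 genes. Of the 30, 29 had a row and 28 passed the filter for testing, a group mean of 1 TPM or more in WT or KO. TPM is the number of reads of a gene per unit of its length, scaled to the same total in every sample. Pigy had no row. Pigz, which adds a side-branch mannose to the anchor, was under the filter, with 1, 1 and 0 reads in the WT samples and 0, 4 and 0 reads in the KO samples. Pigb passed the filter through the WT samples alone, so it had to be lower in KO wherever it is counted below.

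The cells were primary MEFs of strain C57BL/6 at passage 3. The WT group (samples WT 4, WT 5 and WT 8) was Kansl1fl/fl, and the KO group (KO 3, KO 7 and KO 10) was Kansl1fl/fl/CAG-cre, in which the broadly active CAG promoter drives the recombinase. Both groups received tamoxifen at 1 μM during 48 h, and the study's methods describe 3 mice in each genotype. WT cells carried no Cre, so the effects of Kansl1 loss and of Cre cannot be told apart.

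The RNA-seq samples held between 17655495 (KO 3) and 27718259 (KO 7) reads in genes, recovered from the TPM values. Kansl1 itself was 28.5, 26.7 and 24.4 TPM in the WT samples and 13.7, 15.8 and 14.4 TPM in the KO samples, so that the KO mean was 55.1% of the WT mean (log2 fold change -0.82 ± 0.11 SE, limma adjusted p = 0.000859). This value counts all exons and does not measure how much of the gene was deleted. Summed expression of 10 fibroblast markers was 10277 to 14852 TPM in WT and 11003 to 14435 TPM in KO, and 0 of the 9 tested were called, beside 9.03% of all tested genes called lower and 1.64% higher at the thresholds given with the comparison. Summed expression of 11 macrophage markers was 43.9 to 51.6 TPM in WT and 91.2 to 178 TPM in KO, with 2 of the 8 tested, Lyz2 and C1qc, called higher (beside 1.64%). Of these 8, 7 were higher at a limma adjusted p under 0.05 (beside 7.14% of all tested genes), among them Adgre1, which passed the filter through the KO samples alone. Epithelial markers summed to 40.4 to 45.8 TPM in WT and 49.4 to 66.5 TPM in KO, with neither of the 2 tested called. No macrophage marker was at 0 in all samples, 3 of the 11 were under the filter, and the part of these differences in the results was not tested. In such bulk samples, fewer cells of a type and less RNA per cell cannot be told apart.

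The anchor is assembled in the membrane of the endoplasmic reticulum (ER). N-acetylglucosamine is placed on phosphatidylinositol and deacetylated, the inositol is acylated, mannoses are added from dolichol-phosphate-mannose, and phosphoethanolamine groups are attached to the mannoses. The GPI transamidase then cuts the carboxy-terminal signal of a newly made protein and joins the protein to the finished anchor. Remodelling enzymes trim the sugar and lipid parts during transport to the Golgi. In fibroblasts, anchored proteins include the surface glycoprotein Thy1 and the glypicans.

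The region upstream of the first annotated exon is shown for 3 transamidase genes and, for contrast, for Mpdu1, whose expression differed little between the groups. The sequences are from RefSeq (GRCm38.p6), 5′ to 3′ on the strand of the gene. Capitals mark matches, on either strand, to any of 6 motifs. These are CCGGAAG, the core bound by ETS factors, GGGCGG, the SP1 box, CCAAT, which binds NF-Y, TATAAA, the TATA box, and a 10-letter consensus each of NRF1 and YY1. A motif on the opposite strand reads as its reverse complement, and matches were counted for each motif by itself, also where motifs overlapped. The stretches are Pigs chr11:78328172-78328414 on the plus strand, Pigt chr2:164497275-164497519 on the plus strand, Pigu chr2:155357431-155357674 on the minus strand and Mpdu1 chr11:69662650-69662899 on the minus strand.
Pigs: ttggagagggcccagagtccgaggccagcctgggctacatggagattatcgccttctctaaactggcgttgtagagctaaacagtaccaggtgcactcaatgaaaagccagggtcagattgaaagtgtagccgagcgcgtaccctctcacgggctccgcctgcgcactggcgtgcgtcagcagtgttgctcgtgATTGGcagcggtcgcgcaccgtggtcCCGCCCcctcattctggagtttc
Pigt: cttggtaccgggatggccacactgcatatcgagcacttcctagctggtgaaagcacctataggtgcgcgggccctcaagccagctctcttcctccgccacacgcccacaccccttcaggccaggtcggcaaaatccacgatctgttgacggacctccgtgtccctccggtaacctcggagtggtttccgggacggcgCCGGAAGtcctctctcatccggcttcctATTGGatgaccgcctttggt
Pigu: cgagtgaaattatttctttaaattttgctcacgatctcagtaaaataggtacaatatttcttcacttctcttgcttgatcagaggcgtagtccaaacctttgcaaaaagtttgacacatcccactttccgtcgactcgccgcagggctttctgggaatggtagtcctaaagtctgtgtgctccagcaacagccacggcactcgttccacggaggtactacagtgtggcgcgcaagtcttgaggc
Mpdu1: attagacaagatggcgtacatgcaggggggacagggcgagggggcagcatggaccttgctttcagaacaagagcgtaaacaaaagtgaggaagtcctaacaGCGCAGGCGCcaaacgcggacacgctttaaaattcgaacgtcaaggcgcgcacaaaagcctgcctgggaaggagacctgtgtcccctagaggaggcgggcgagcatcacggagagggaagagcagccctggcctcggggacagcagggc
Motif positions count from the RefSeq start site. The stretches end 8 (Pigs), 6 (Pigt), 7 (Pigu) and 1 (Mpdu1) bases upstream in this count. In the Pigs stretch, an SP1 match lies at -30 to -25 from the start site and a CCAAT match at -56 to -52, both on the opposite strand. Pigt has an ETS match at -53 to -47 and an opposite-strand CCAAT match at -25 to -21. Mpdu1 has an NRF1 match at -149 to -140, and the Pigu stretch holds none of the 6 motifs. The promoter windows counted further below run past these stretches and hold more matches. Over its window, Pigs has 1 ETS, 2 SP1 and 2 CCAAT matches, and Mpdu1 has 3 NRF1 matches and 1 SP1 match. The windows of Pigt and Pigu hold no further match.

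The comparison of KO with WT asks whether expression of the GPI genes differs once Kansl1 is deleted. A gene was called lower or higher at the study's thresholds, a limma adjusted p under 0.005 and a log2 fold change beyond 0.5 in size. Of the 28 tested GPI genes, 8 were called lower in KO: all 5 transamidase subunits (Pigk, Pigs, Pigt, Pigu and Gpaa1) together with Pigg, Pigc and Pgap2. This is 28.6%, beside 9.03% of the 14799 genes tested. The list was chosen with earlier results of these data known, so such shares describe it and do not test it. In the other direction, 0 were called higher, beside 1.64% of all tested genes. None of the 28 was higher at an unadjusted p under 0.05 (12.2% of all tested genes were), and voom on recovered reads also called 0 higher (beside 2.93%). In 21 of the 28 (75%), all 3 KO samples lay under all 3 WT samples, which held for 29.9% of tested genes. The fold change was negative for 27 of the 28, beside 57.4% of tested genes. The median log2 fold change of the 28 was -0.59, and that of all tested genes was -0.07.

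All 5 subunits of the GPI transamidase were called lower in KO. In the fit of all genes without a filter, Pigk and Pigu lost the call (limma adjusted p = 0.0084 and 0.00515), and at a threshold of 1 for the log2 fold change Gpaa1 did. PIGK is the protease-like catalytic subunit, and PIGS, PIGT, PIGU and GPAA1 are its partners in the membrane complex. Pigs (ENSMUSG00000041958.10, chr11:78328415-78342782, mm10) was expressed at 71.3, 73.6 and 71.6 TPM in WT and at 23.0, 30.04 and 25.9 TPM in KO. The KO mean of Pigs was 36.5% of the WT mean (26.3 ± 3.52 against 72.2 ± 1.23 TPM, SD, n = 3 each). Its log2 fold change, on log2(TPM + 1), was -1.43 ± 0.11 SE (limma adjusted p = 0.000146). On this scale Pigs had the largest decrease among the 28 GPI genes, and 0.926% of all tested genes had a lower value. By ratio of means, Pigb was lower still (34.4% of WT). The WT samples of Pigs lay close together and every KO sample was far below them.

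Pigt (chr2:164497520-164508301) was measured at 47.5, 51.5 and 47.2 TPM in WT and 21.6, 24.9 and 24.2 TPM in KO, with a log2 fold change of -1.02 ± 0.10 SE (limma adjusted p = 0.000278). Gpaa1 (chr15:76331231-76334907) had 36.1, 38.2 and 38.5 TPM in WT and 16.4, 21.3 and 19.2 TPM in KO, a decrease to 50.4% (log2 fold change -0.96 ± 0.12 SE, limma adjusted p = 0.000566). For both genes the lowest WT value stood well above the highest KO value. Expression of the catalytic subunit Pigk (chr3:152714100-152980408) was 24.0, 21.8 and 19.4 TPM in WT and 8.17, 11.9 and 10.5 TPM in KO (log2 fold change -1.03 ± 0.15 SE, limma adjusted p = 0.00114). Pigu (chr2:155278243-155357430), the least expressed of the 5, fell from 7.56, 7.51 and 6.89 TPM to 2.68, 3.14 and 2.62 TPM, with a log2 fold change of -1.13 ± 0.13 SE (limma adjusted p = 0.000482). Of the 5, Pigk had the widest spread among WT samples relative to its mean, and its groups still did not overlap.

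Summed over the 5 subunits, transamidase expression was 184 to 193 TPM in the WT samples and 71.9 to 91.3 TPM in the KO samples, a KO mean at 43.6% of WT. The share of Pigs in this sum was 38.2 to 39.0% in WT and 31.4 to 32.9% in KO. Gpaa1 took 19.4 to 20.96% of the sum in WT and 22.8 to 23.3% in KO, and Pigt 25.5 to 26.8% in WT and 27.3 to 30.1% in KO. The share of Pigu was 3.75 to 4.05% in WT and 3.18 to 3.73% in KO. The shares of Pigk overlapped between the groups. These shares add up to the whole in each sample, so they move together and carry no test.

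**Figure D1:**
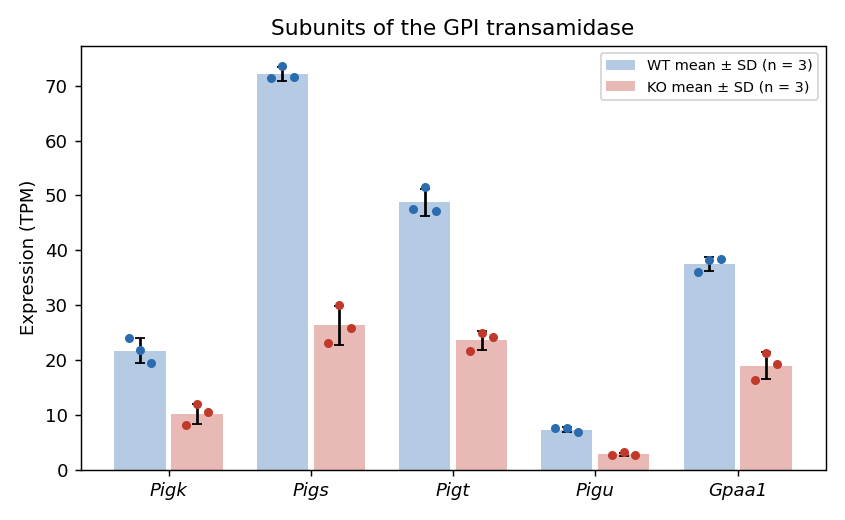
TPM of the 5 GPI transamidase genes, with points for samples, bars for group means and error bars for the SD (n = 3 each). The KO points lie below the WT points for every subunit, from 71.3 to 73.6 TPM down to 23.0 to 30.04 TPM for Pigs and from 6.89 to 7.56 TPM down to 2.62 to 3.14 TPM for Pigu.

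Of the 4 genes that act in attaching phosphoethanolamine, 1 was called lower, Pigg, beside 9.03% of all tested genes. Pigg (chr5:108312609-108349355), the enzyme for the second mannose, was at 9.98, 9.85 and 7.33 TPM in WT and 2.47, 4.13 and 3.60 TPM in KO, with a log2 fold change of -1.20 ± 0.18 SE (limma adjusted p = 0.00146; 0.0122 and not called without the filter). Pigo, which adds the phosphoethanolamine on the third mannose to which the protein is later joined, had 7.03, 9.69 and 9.38 TPM in WT and 3.98, 5.88 and 4.24 TPM in KO. The groups of Pigo did not overlap, but the limma adjusted p of 0.00893 missed the threshold at a log2 fold change of -0.77 ± 0.17 SE. Pign, the enzyme for the first mannose, had a KO mean at 81.6% of WT (95% interval of the log2 fold change -0.54 to 0.01, limma adjusted p = 0.137). Pigf, the partner of both PIGO and PIGG, reached 75.2% of WT, and its groups overlapped at 12.5 TPM (WT 8 and KO 3; limma adjusted p = 0.12).

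The complex that starts the pathway transfers N-acetylglucosamine to phosphatidylinositol, with PIGA as the catalytic subunit. All 5 of its tested genes had KO samples under the WT samples, beside 29.9% of all tested genes. Pigc, 1 of the 5, was called lower, beside 9.03%. Pigc (chr1:161969186-161973435) was at 9.06, 8.85 and 8.16 TPM in WT and 3.88, 4.64 and 5.61 TPM in KO (log2 fold change -0.77 ± 0.14 SE, limma adjusted p = 0.00372). The call on Pigc was lost in 5 of the 6 fits that left out a sample, in which its limma adjusted p was at most 0.0144, and it was kept without KO 10. It was also lost without the variance trend (0.00569) and without the filter (0.0187). Piga (chrX:164419787-164433916) itself was 9.74, 8.97 and 7.58 TPM in WT and 4.65, 5.85 and 5.95 TPM in KO, with a log2 fold change of -0.59 ± 0.14 SE and a limma adjusted p of 0.0132. Pigh, a small partner subunit, had 2.85, 2.73 and 2.20 TPM in WT against 0.869, 1.08 and 1.08 TPM in KO. At 38.9% of WT, its ratio of means was close to those of Pigs and Pigu, and its limma adjusted p was 0.00642. Pigh had only 23, 38 and 35 reads in KO 3, KO 7 and KO 10. Its exons share 992 bases with Plekhh1 on the opposite strand, and the library kit does not mark strand. Pigq stood at 71.3% and Pigp at 88.2% of WT, with limma adjusted p of 0.0177 and 0.285.

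The genes of the deacetylation and acylation steps that come next, Pigl and Pigw, did not pass the threshold. Pigl, the deacetylase, was 8.38, 8.45 and 7.62 TPM in WT and 7.76, 8.33 and 6.96 TPM in KO, and its groups overlapped (95% interval of the log2 fold change -0.35 to 0.19). The inositol acyltransferase gene Pigw overlapped too, at 9.98, 9.14 and 7.45 TPM in WT and 6.94, 8.87 and 9.59 TPM in KO (95% interval -0.40 to 0.28). For these steps, the intervals leave out a decrease of the size measured for any transamidase gene.

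Among the mannosyltransferase genes, Pigm and its stabilising partner Pigx add the first mannose, Pigv the second and Pigb the third. Pigm was at 79.5% of WT with KO samples all lower (limma adjusted p = 0.0645), while Pigx (85.9%) and Pigv (90.7%) overlapped between the groups. Pigb was 2.02, 2.07 and 1.77 TPM in WT and 0.712, 0.821 and 0.483 TPM in KO. That is 34.4% of WT, the lowest ratio of means among the 28 genes, with a limma adjusted p of 0.0099. Because only its WT mean reached the filter, Pigb had to be lower in KO, and this ratio and p do not test its direction. At this low level the log2(TPM + 1) scale understates the fold, giving -0.82 ± 0.19 SE. Exons of Pigb share 2170 bases with Ccpg1 on the opposite strand, and the library kit does not mark strand, so reads of the 2 genes cannot be separated there.

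The mannose donor is made by the DPM1, DPM2 and DPM3 synthase and used with the help of MPDU1. Dpm2 was 36.3, 35.8 and 32.7 TPM in WT and 25.3, 29.8 and 28.5 TPM in KO (log2 fold change -0.32 ± 0.11 SE, limma adjusted p = 0.0509). Dpm3 was at 68.6% of WT, again with KO samples all lower (limma adjusted p = 0.0455). Mpdu1 had 27.2, 32.5 and 28.1 TPM in WT and 27.7, 27.2 and 27.0 TPM in KO, overlapping at 93.1% of WT (95% interval of the log2 fold change -0.33 to 0.14). Dpm1, the catalytic subunit, was the 1 gene of the 28 with a positive value, 0.08 ± 0.18 SE, at 1.203 to 1.55 TPM in WT and 1.35 to 1.82 TPM in KO. Its level is uncertain, since its exons share 895 bases with Gm20716 on the same strand and the handling of such reads is not given in the sources used here.

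All 4 remodelling genes had KO samples under the WT samples (29.9% of all tested genes did), and 1 of the 4 was called lower (beside 9.03%). Pgap2 (chr7:102210208-102238567), needed for adding a saturated fatty acid in the Golgi, was 6.32, 5.41 and 6.01 TPM in WT and 2.85, 3.60 and 3.19 TPM in KO. The log2 fold change of Pgap2 was -0.72 ± 0.14 SE, and its limma adjusted p of 0.00462 lay close to the threshold of 0.005. This call was lost in each of the 6 fits that left out a sample, with limma adjusted p up to 0.019, and without the filter (0.0221). Mppe1 (also PGAP5), which removes a phosphoethanolamine from the anchor, had 6.57, 7.14 and 6.87 TPM in WT and 2.82, 5.03 and 3.32 TPM in KO, where KO 7 was higher than the other 2 KO samples (limma adjusted p = 0.0113). Pgap1, the inositol deacylase, was at 50.7% of WT and Pgap3, which acts on the lipid in the Golgi, at 44.4%, with limma adjusted p of 0.0315 and 0.0195. Both were near 1 TPM in KO.

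By step, the median log2 fold change was -1.03 for the 5 transamidase genes, -0.74 for the 4 remodelling genes, -0.59 for the 5 N-acetylglucosamine transfer genes and -0.57 for the 4 phosphoethanolamine genes. It was -0.26 for the 4 mannosyltransferase genes and -0.21 for the 4 donor genes. The 23 tested genes outside the transamidase had a median of -0.46. Of these, 3 were called lower (13.04%, near the 9.03% of all tested genes), and 16 had KO samples all lower (69.6%, beside 29.9%). Differences between steps were not tested.

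**Figure D2:**
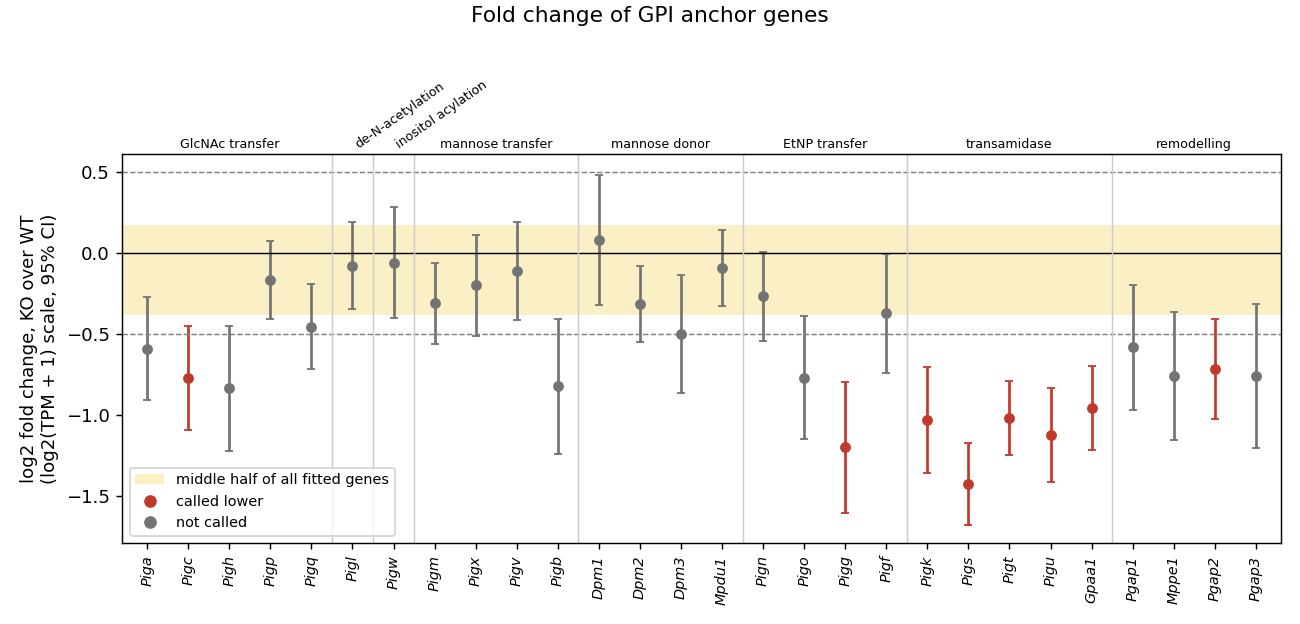
Log2 fold change (KO over WT, log2(TPM + 1) scale) of the 28 tested GPI genes with 95% limma intervals, ordered by step of the pathway (EtNP, phosphoethanolamine; GlcNAc, N-acetylglucosamine). The yellow band spans the middle 50% of all tested genes, dashed lines mark the fold threshold and red marks called genes. Transamidase values run from -1.43 to -0.96, whereas Mpdu1, Pigl and Pigw lie near 0 and Dpm1 is at 0.08.

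The 20 genes that were not called were not all alike. Of these, 9 had a limma adjusted p under 0.05, and 7 of the 9 (Mppe1, Pgap1, Pgap3, Piga, Pigb, Pigh and Pigo) were also below -0.5, missing the stricter p threshold alone. The other 2 were Pigq and Dpm3. Pigb counts among the 7 although the filter fixed its direction. Over the 28 genes, 17 were lower at an adjusted p under 0.05, beside 20.7% of all tested genes. In 7 genes the groups overlapped.

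The decrease also changed the order of expression among the genes. In WT, Pigs, Pigt and Gpaa1 were the 3 most expressed of the GPI genes by mean TPM, followed by Dpm2 and Mpdu1. In KO, Dpm2 (27.9 ± 2.32 TPM) and Mpdu1 (27.3 ± 0.35 TPM) came first, then Pigs (26.3 ± 3.52 TPM) and Pigt (23.6 ± 1.74 TPM). These leading KO means lay within a few TPM, and Dpm2, Mpdu1 and Pigs do not differ beyond their SDs.

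**Figure D3:**
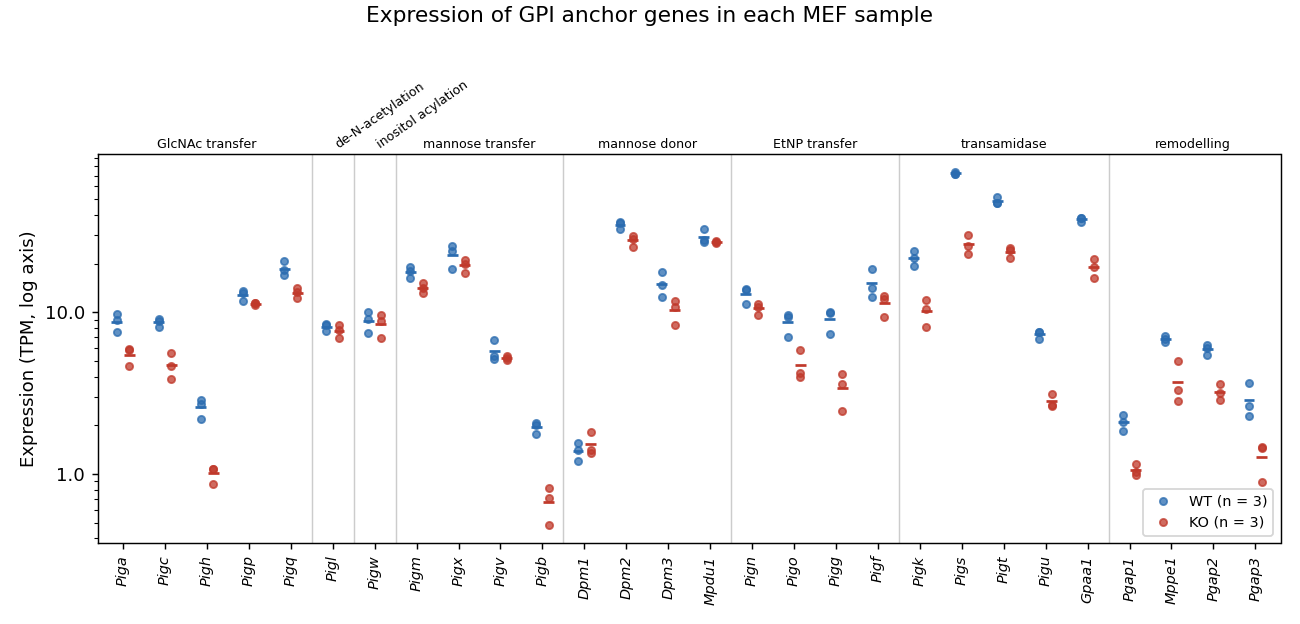
TPM (log axis) of each tested GPI gene in the 3 WT (blue) and 3 KO (red) samples, grouped by step, with short lines for group means. Pigs leads in WT at 72.2 TPM on average, and Dpm2 leads in KO at 27.9 TPM.

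Sample by sample, the median log2 ratio of the 28 GPI genes to the WT mean (log2(TPM + 1) scale) was -0.70 in KO 3, -0.49 in KO 7 and -0.52 in KO 10. All tested genes had medians of -0.21, 0.03 and -0.05 in the same samples, so the GPI genes stood lower by 0.50, 0.52 and 0.47. KO 3 gave the lowest KO value for 20 of the 28 genes and KO 7 the highest for 21 of the 28. KO 3 also held the fewest reads and the largest share of its most abundant RNA (25.6% of TPM, against 15.5 to 24.3% in the other samples). The part of depth in this order was not tested. Without KO 3, all 5 transamidase genes and Pigg were still called.

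**Figure D4:**
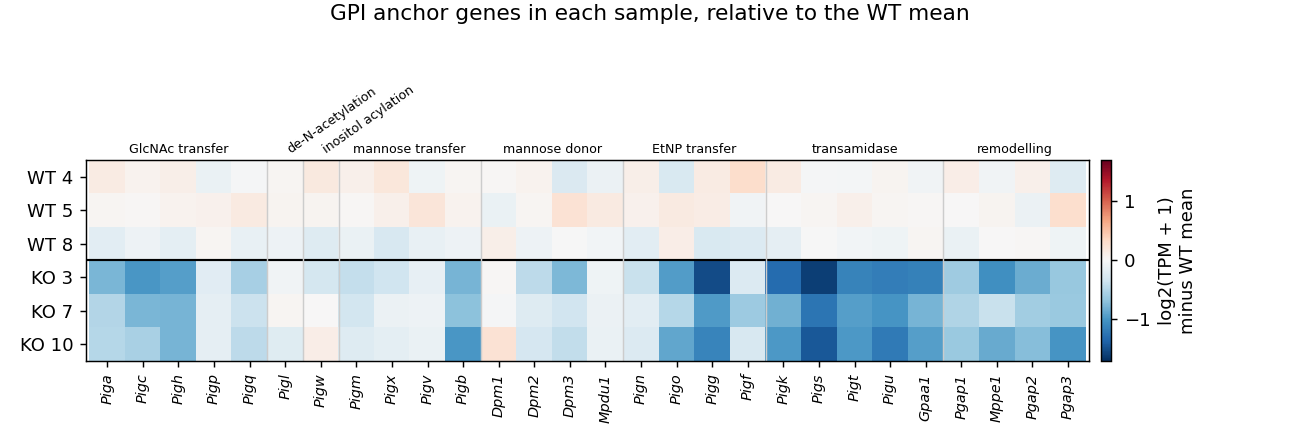
Heat map of each tested GPI gene (columns) in every sample (rows) as log2(TPM + 1) minus its WT mean, blue for lower and red for higher. The KO samples sit below 0 for most genes, with medians of -0.70, -0.49 and -0.52 in KO 3, KO 7 and KO 10.

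The share of genes called differed with the level of expression. Of the tested genes with a WT mean of 5 to 10 TPM, 16.7% were called lower, and 4 of the 10 GPI genes in that range were. From 10 to 20 TPM it was 14.4% of tested genes and 0 of 6 GPI genes, and from 20 to 40 TPM 11.3% and 2 of 5. From 40 to 80 TPM, 7.15% of tested genes were called lower, and both GPI genes there, Pigs and Pigt, were. Under 5 TPM it was 4.29% and 0 of 5.

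Position and exon structure were examined across the genes. The 28 tested genes lie on 14 chromosomes and the 8 called on 7. Exons of 15 of the 28 overlap those of another gene, where the counting could have split or dropped reads. Of the called genes, Pigc, Pigg, Pigk and Pgap2 have such overlaps, of 80, 141, 108 and 606 bases, and Pigs, Pigt, Pigu and Gpaa1 have none.

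Promoter windows (250 bases before to 50 after the RefSeq start, 1 per gene) were found for 23 of the 28 tested genes, and entries were missing for Pigm, Pigg, Pigk, Gpaa1 and Mppe1. For some genes, such as Pgap2 and Dpm3, the window lies inside the gene and not at its outermost annotated start. The ETS motif occurred in 9 of the 23 windows (39.1%), in 18.9% of the windows of all tested genes and in 9.12% of all windows in the RefSeq table. NRF1 matches were found in 6 of the 23 (26.1%), beside 10.8% of tested genes and 4.78% of all windows. SP1 matches were in 13 (56.5%, against 66.3% and 35.9%), CCAAT in 9 (39.1%, against 39.2% and 37.9%), TATAAA in 2 (8.7%, against 6.75% and 14.2%) and the YY1 motif in 0 (against 3.58% and 1.44%). Of the 5 called genes with a window, 3 held the ETS motif and 0 the NRF1 motif, and of the 18 not called 6 held each. Among all 1081 genes called lower with a window, 26.0% held the ETS motif and 8.6% the NRF1 motif. No test of these shares was made. Such matches are letters in a window and not measured binding.

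Genes that work beside the pathway were examined as 4 further lists. Of the 18 tested genes that supply sugars, dolichol and lipid for the anchor, 4 were called lower (22.2%, beside 9.03% of all tested genes) and 1 higher (5.56%, beside 1.64%). Dhdds, a subunit of the cis-prenyltransferase that makes the dolichol chain, was 21.2, 25.4 and 21.2 TPM in WT and 6.504, 7.91 and 7.04 TPM in KO (log2 fold change -1.53 ± 0.12 SE, limma adjusted p = 0.000151). That is 31.6% of WT, a larger decrease than in any of the 28 GPI genes. Nus1, the other subunit of that enzyme, was at 95.8% of WT (89.6 ± 8.22 against 85.8 ± 4.16 TPM; limma adjusted p = 0.703).

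Dolpp1, which recycles dolichol pyrophosphate, was 15.3 ± 1.36 TPM in WT and 6.10 ± 1.47 TPM in KO (SD, n = 3 each), with a log2 fold change of -1.21 ± 0.16 SE (limma adjusted p = 0.000852). Pmm2, a phosphomannomutase on the way to GDP-mannose, fell from 19.1 ± 1.85 to 10.5 ± 1.08 TPM (limma adjusted p = 0.00147). Cdipt, the phosphatidylinositol synthase, fell from 125 ± 10.0 to 86.4 ± 1.32 TPM (log2 fold change -0.52 ± 0.10 SE, limma adjusted p = 0.00361). Pcyt2, of phosphatidylethanolamine synthesis, rose from 23.2 ± 0.907 to 37.3 ± 1.09 TPM (log2 fold change 0.66 ± 0.09 SE, limma adjusted p = 0.0012). The call on Cdipt was lost in each of the 6 fits that left out a sample, and also without the variance trend and with median-of-ratios scaling. Pmm2 lost its call without WT 5, KO 3 or KO 10, and Pcyt2 without WT 5 or KO 10. Dhdds and Dolpp1 were called in all 6 of these fits. Without the filter, Dolpp1, Pmm2 and Cdipt lost their calls. The list as a whole had a median log2 fold change of -0.06, close to the -0.07 of all tested genes, but its genes went both ways. KO samples lay all under the WT samples in 6 of the 18 (beside 29.9% of all tested genes) and all over them in 6 (beside 13.3%). At an unadjusted limma p under 0.05, 6 were lower and 6 higher (beside 27.2% and 12.2%).

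Among 12 tested genes for export of GPI-anchored proteins from the ER, Tmed4 alone was called (8.33%, near the 9.03% of all tested genes), at 74.7, 71.2 and 68.6 TPM in WT and 40.4, 46.3 and 40.5 TPM in KO (log2 fold change -0.74 ± 0.10 SE, limma adjusted p = 0.000857). Of the p24 cargo receptors, the family of Tmed4, the most expressed were Tmed2 and Tmed9, at 103% and 92.8% of WT with overlapping groups. Tmed5, Tmed7 and Tmed1 were at 71.8%, 79.8% and 86.5% of WT, not called but with KO samples all lower. The remaining family members Tmed3 and Tmed10 were at 102% and 87.7% of WT, and their groups overlapped. KO samples were all lower in 6 of the 12 genes (beside 29.9%), and the median of the 12 was -0.20. Of 6 tested factors linked to the pathway, limma called 0. At an unadjusted p under 0.05, 1 was lower (beside 27.2% of all tested genes), and voom called 1 lower (beside 14.5%). The gene lower at that p was Tmem8b (2.04 ± 0.184 TPM in WT and 0.604 ± 0.246 TPM in KO, limma adjusted p = 0.00756), which passed the filter through the WT samples alone and so had to be lower in KO. The most expressed of the 6 were Clptm1l, a lipid scramblase (92.5% of WT), and Tmem41b (99.5%).

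The products of the pathway were compared by a list of 85 GPI-anchored proteins, of which 47 were tested. At the thresholds limma called 0, beside 9.03% of all tested genes lower and 1.64% higher. At an unadjusted p under 0.05, 5 were lower and 11 higher (beside 27.2% and 12.2%), and Ntng2, 1 of the 5, passed the filter through the WT samples alone. With voom, 2 were called lower, Reck and Tfpi, and 2 higher, Efna5 and Gpc6 (beside 14.5% and 2.93%). The median log2 fold change was 0.18 and the range -0.91 to 0.79. Thy1 was 342, 637 and 561 TPM in WT and 412, 510 and 552 TPM in KO, and Gpc4, a glypican, 301, 308 and 274 TPM in WT and 339, 350 and 310 TPM in KO. Thy1 overlapped widely, and in Gpc4 every KO sample was above every WT sample (beside 13.3% of all tested genes) at a limma adjusted p of 0.203. The summed level of the list was 1992 to 2128 TPM in WT and 2051 to 2327 TPM in KO. These values are of mRNA, and anchored protein at the cell surface was not measured here.

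**Figure D5:**
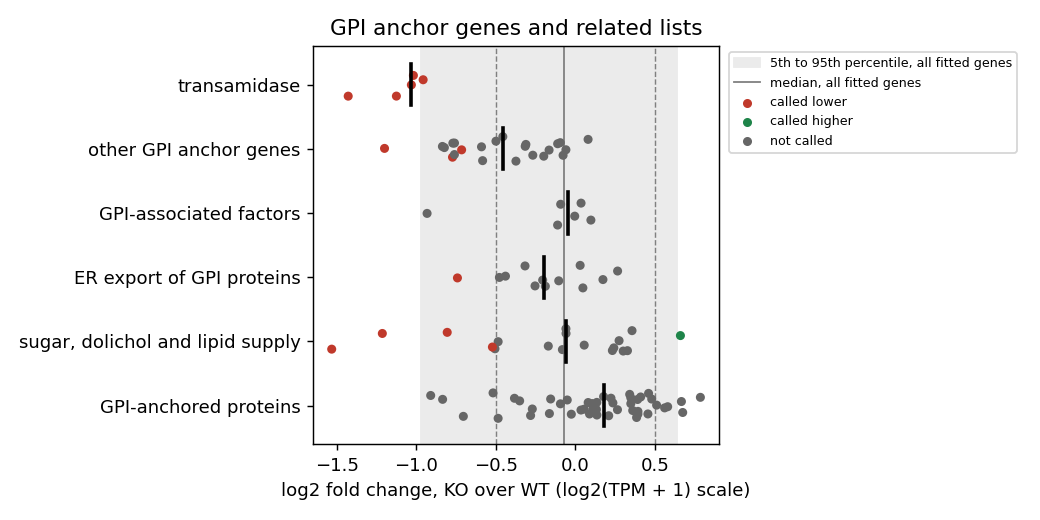
Log2 fold changes (KO over WT, log2(TPM + 1) scale) of the tested genes, each point 1 gene, with black lines for list medians, dashed lines for the fold threshold, and a grey band and line for the 5th to 95th percentile and the median of all tested genes. The transamidase genes have a median of -1.03, the other GPI genes of -0.46, the ER export genes of -0.20 and the GPI-anchored proteins of 0.18.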

How the data were processed

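RNA-seq was performed on 3 WT and 3 KO MEF samples, named by their titles. Per the study's methods, the authors used STAR for mapping to mm10 and DESeq2 for testing, and the submitters' processing notes name Bowtie 0.12.2. The counting program and its handling of overlapping genes are not given in the sources used here. The authors deposited TPM for 26898 genes. They also deposited their own log2 fold change and adjusted p-value for each gene, which were not used. All 26898 identifiers matched GENCODE M21, the source of positions and exon lengths.

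The 14799 genes reaching a WT or KO mean of 1 TPM were fitted on log2(TPM + 1) with limma 3.58.1 (R 4.3.3), with a variance trend, 2 groups and no covariate. P-values are two-sided and Benjamini-Hochberg adjusted over all fitted genes. They measure the spread among 3 samples per group. Fold changes on this scale understate those of low genes. The scripts were tested on simulated data.

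TPM carries no depth, but TPM times exon length gave whole reads for 100% of the 15490 to 16626 values checked per sample at a tolerance of 0.05. The recovered reads were used for depth and for voom. DESeq2 was not run here. The members and lists were chosen with earlier results of these data known. By rule, the text names Kansl1, all 30 GPI genes and, of each other list, up to 5 called genes and the 2 with the highest mean TPM. Tmed1, Tmed3, Tmed5, Tmed7, Tmed10, Tmem8b, Ntng2, Reck, Tfpi, Efna5, Gpc6 and the marker genes were named after their values were seen.

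Alternatives changed the pseudocount, filter, scaling, variance trend, thresholds and samples, removed the 2 most abundant RNAs or used voom. The labels give 10% serum, the methods of the study another content. The labels give no batch.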

Additional observations from a re-analysis of the deposited data

How the results depend on the processing

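The 8 GPI genes called lower (9.03% of all genes were) became 3 without the filter (1.06% of all genes), 4 of 13 with the filter at 10 TPM (14.1%), 14 with voom (14.5%), 15 at an adjusted p under 0.05 (16.6%) and 5 at a log2 fold change beyond 1 (4.05%). Leaving out 1 sample gave 6 or 7 (4.16 to 6.34%). Pigs and Pigt were called in every setting. Pigk, Pigg, Pigu and Gpaa1 were called in each fit that left out a sample, but Pigk, Pigg and Pigu not without the filter and Gpaa1 not beyond 1. No setting called a GPI gene higher. The median log2 fold change of the GPI genes was -0.77 with a pseudocount of 0.1, -0.37 with the filter at 10 TPM and -0.75 with voom. Kansl1, at -0.82, is not called where the threshold is 1. Of the 6 GPI-associated factors, 1, Tmem8b, was called lower without the variance trend (7.76% of all genes), with voom (14.5%) and at an adjusted p under 0.05 (16.6%). The ER export call fell to 0 at a log2 fold change beyond 1, where 4.05% of all genes were called lower. The supply genes gave 4 lower and 1 higher calls (beside 1337 and 242 of all 14799 genes). Without the filter they gave 1 and 1 (286 and 55 of 26898), and at a log2 fold change beyond 1 they gave 2 and 0 (600 and 105). They gave 2 and 0 without WT 5 (617 and 141) or KO 10 (786 and 124), and 2 and 1 without KO 3 (654 and 123). Leaving out any other sample gave 3 and 1 (829 to 938 lower and 84 to 252 higher). GPI-anchored proteins gave 2 lower and 2 higher calls with the filter at 10 TPM (beside 1160 and 343 of all 8230 genes). With median-of-ratios scaling they gave 0 and 3 (1440 and 473 of 14799). With the 2 most abundant RNAs removed they gave 1 and 1 (1759 and 301 of 15630). Voom gave 2 and 2 (2152 and 433 of 14799), and an adjusted p under 0.05 gave 4 and 4 (2453 and 694). Without WT 4 it was 1 and 1 (829 and 252), without WT 8 it was 1 and 0 (850 and 112), and without any other sample 0. The sign changed with median-of-ratios scaling for Pigl (0.0163), Pigw (0.0344) and Mpdu1 (0.0066). Without 1 sample, Pigw ranged from -0.167 (WT 8 left out) to 0.0619 (KO 3 left out; 0.0226 without WT 4) and Dpm1 from -0.00207 (without KO 10) to 0.13 (without KO 7). None of these was called. Apart from thresholds, filters and left-out samples, which change what is tested, the cause was not tested. No paired analysis was made, because the labels give no pairing and no replicate number occurs in both groups. Whether samples of the groups share a litter is not known from the labels. The fewest reads in a tested GPI gene were 23, for Pigh in KO 3 (76 to 87 in WT), so counting error is largest there.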

Other observations

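Of the 28 tested GPI genes, 5 start within 1000 bases of the start of a protein-coding gene on the opposite strand, beside 10.3% of tested protein-coding genes. The pairs are Pgap2 with Nup98, 32 bases apart, Dpm1 with Mocs3 (31), Pigx with Cep19 (60), Pigf with Cript (144) and Pign with Relch (184). No partner was called, beside 15.8% called lower among the tested protein-coding genes with such a neighbour. Nup98, a nuclear pore gene, had a log2 fold change of 0.05 ± 0.11 SE (limma adjusted p = 0.759), whereas its neighbour Pgap2 was called lower at -0.72. The call on Pgap2 was lost in every fit that left out a sample. Distances here run between the outermost starts in GENCODE, and the RefSeq promoter window of Pgap2 lies inside the gene, so a shared promoter is not shown. Cript had -0.57 ± 0.13 SE (limma adjusted p = 0.0113) and its neighbour Pigf -0.37. The difference within pairs was not tested.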
